A study of Mus musculus with 36 samples.

Results

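The interferon regulatory factors (IRFs) were followed at the mRNA level while mouse B cells were converted into macrophages. The 8 genes Irf1, Irf2, Irf3, Irf4, Irf5, Irf7, Irf8 and Irf9 were taken by symbol from the deposited count tables, as 8 of the 40354 genes listed there. All 8 passed the filter on low counts, which left 17277 genes for testing.

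Primary B cells from the bone marrow of C57BL/6J mice were infected with a retrovirus for C/EBPα fused to the oestrogen receptor (ER), and cells carrying its human CD4 mark were cultured on inactivated mouse embryonic fibroblast feeders with IL-7, IL-3, FLT-3, CSF-1 and SCF. Per the methods of the study, later renewals of the medium left out IL-7. The groups at 120 h may thus also differ from earlier ones in IL-7, and its part was not tested. Estradiol (E2) induces the nuclear entry of the fusion protein and with it the B cell to macrophage transdifferentiation (BMT). The constructs carried C/EBPα WT, C/EBPα R35A, with alanine in place of 1 arginine, or C/EBPα R35K, with lysine in its place. RNA was sequenced at 0, 1, 3, 6, 18 and 120 hours post-induction (hpi) with 2 biological replicates in each of the 18 groups, 36 libraries in all. Every group, 0 h included, carries a construct, so uninfected cells are not part of the comparison. The cells are pools of infected cells after bead enrichment and feeder removal, and the sources used here do not say whether replicates came from separate mice, so the p-values measure only the spread between these libraries. The R35K libraries come in tables of their own, so that a difference of R35K from the other constructs and a difference between tables cannot be told apart.

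IRFs share a DNA-binding domain that reads GAAA repeats, the core of the interferon-stimulated response element (ISRE). Irf3, Irf5 and Irf7 are latent in the cytoplasm until Toll-like and nucleic acid receptors lead to their phosphorylation, after which they drive interferon and cytokine genes, and Irf9 is the DNA-binding subunit of the complex that answers type I interferon. Irf4 and Irf8 are lineage factors of B cells, macrophages and dendritic cells that bind weakly alone and are recruited to DNA by PU.1 or its relative Spi-B, and Irf1 and Irf2 are an activator and an antagonist at many of the same elements.

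The labelled cell types, B cells up to 18 hpi and macrophages at 120 h, were set against their markers. The summed level of 12 B cell markers was 3900 to 4270 CPM (counts scaled to a library of 1000000 counts) over the 6 libraries at 0 h and 190.0 to 315 CPM at 120 h, while 10 macrophage markers rose from 231 to 246 CPM to between 21300 and 32800 CPM. At 120 h 11 of the 12 B cell markers fell in each construct, when 36.5%, 35.3% and 35.5% of all genes fell in WT, R35A and R35K cells. The other 1 rose in WT and was not called with either mutant. Median log2 changes of the 12 were -7.79, -7.12 and -7.37, so the sums understate the median fall. Most of the early rise of macrophage markers was already there at 1 hpi. They summed to 1130 to 1140 CPM in WT, 4350 to 4360 CPM in R35A and 8830 to 8980 CPM in R35K cells. B cell markers fell further after 1 hpi. Their sums at 1 hpi were 1970 CPM in WT, 678 to 682 CPM in R35A and 1180 to 1200 CPM in R35K cells. At 18 hpi these sums were 406 to 410, 347 to 349 and 534 to 538 CPM. Markers of feeder fibroblasts summed to 2090 to 2260 CPM at 0 h, to 2740 to 5180 CPM from 1 to 18 hpi and to 179 to 635 CPM at 120 h, and 5 T and NK cell markers never passed 1.41 CPM in sum. The feeder sums differed between constructs. At 1 hpi they were 3860 to 3870 CPM in WT, 4120 to 4150 CPM in R35A and 3190 to 3300 CPM in R35K cells. At 18 hpi they were 5080 to 5180 CPM in WT, 3630 CPM in R35A and 2740 to 2760 CPM in R35K cells. Granulocyte markers (8 genes) summed to 46.6 to 60.1 CPM at 0 h and to at most 10.8 CPM at later times. The part of these shifts in the IRF values below was not tested, and in bulk RNA fewer cells of a type and less RNA per cell cannot be told apart. Libraries held 13044456 to 23131776 counts, with a median of 15471229.5, and the counts behind single IRF values ran from 23 for Irf7 at 0 h to 5088 for Irf5 at 120 h.

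The windows around the start sites of the members, from 250 bases before to 50 after each start in RefSeq on GRCm38.p6, were searched on both strands for 5 motifs: the ISRE core (GAAA, 2 bases of any kind and GAAA), the gamma-activated site TTCNNNGAA to which STAT dimers bind, the ETS-IRF composite (GGAA, 2 bases of any kind and GAAA) of PU.1 with Irf4 or Irf8, a C/EBP site TTGCNNAA and a PU.1 site GAGGAAGT. All 8 symbols matched, with 11 windows, since Irf1, Irf8 and Irf9 have 2 starts each. Only Irf1, Irf2 and Irf8 held any of these exact letters. The gamma-activated site was found in 3 of the 11 windows, against 8.3% of 32851 promoter windows of the same length, and its stretches are shown because interferon-γ signalling acts by such sites. Capitals mark the matched motif, all on the strand of the gene (+ strand).
Irf1, chr11:53769914-53769942: acagcctgatTTCCCCGAAatgatgaggc
Irf2, chr8:46739511-46739539: aaattgacttTTCCGAGAAatgatgaaag
Irf8, chr8:120736177-120736205: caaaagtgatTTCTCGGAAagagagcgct
Irf8, chr8:120736195-120736223: aagagagcgcTTCAGAGAAggcggatttg
The Irf2 window also held an ETS-IRF composite (2.72% of all windows) that overlaps an ISRE core (3.44%), and a C/EBP site (10.8%). They are shown as the only matches to an element of the IRFs themselves and to one of C/EBP.
Irf2, chr8:46739495-46739520, composite and ISRE core: tggGGAAGTGAAAATGAAAttgactt
Irf2, chr8:46739617-46739644, C/EBP: cacctccgggTTGCACAAgcttgaaaca
The PU.1 letters (3.2% of all windows) were in no member window. A match is a description of letters, and no match says only that these letters are not in these windows.

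In the tests below a gene was called when it changed by at least 1.5-fold, which is 0.58 on the log2 scale, and had an adjusted p no higher than 0.05 in edgeR's quasi-likelihood test, adjusted by Benjamini and Hochberg's method over all 17277 genes. Changes are given as log2 differences of the fit with the standard error (SE). In WT cells 5 of the 8 members were called at 1 hpi, when 19.7% of all genes were called. Their number was 5 at 3 hpi (23.2% of all genes) and 5 at 6 hpi (29.6%), it was 6 at 18 hpi (46.7%), and 5 were called at 120 h (61.8%). With R35A, 6 of 8 were called at 1 hpi (37.1% of all genes) and 6 at 3 hpi (36.7%), 5 were called at 6 hpi (37.4%), and 6 at 18 hpi (42.4%) and again 6 at 120 h (61.8%). With R35K, 4 of 8 were called at 1 hpi (31.9%) and 4 at 3 hpi (31.7%), 5 were called at 6 hpi (33.2%) and 5 at 18 hpi (38.5%), and 6 at 120 h (62.2%). With both directions counted together, the share of members called at 120 h was thus near that of all genes in each construct. By direction it was not. At 120 h 5 members rose in each construct, when 25.2%, 26.5% and 26.7% of all genes rose in WT, R35A and R35K cells. Of the members 0 fell in WT and 1 with each mutant, when 36.5%, 35.3% and 35.5% of all genes fell. Irf4 and Irf8 fell and Irf7 rose at every early time in all 3 constructs, as the plot of levels by time and the map of changes show, and all 8 members rose between 18 and 120 h. WT counts leaned on 1 library, with 20 called tests of 40 over the 5 times without WT 0 h replicate 1 against 26 with all libraries.

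**Figure D1:**
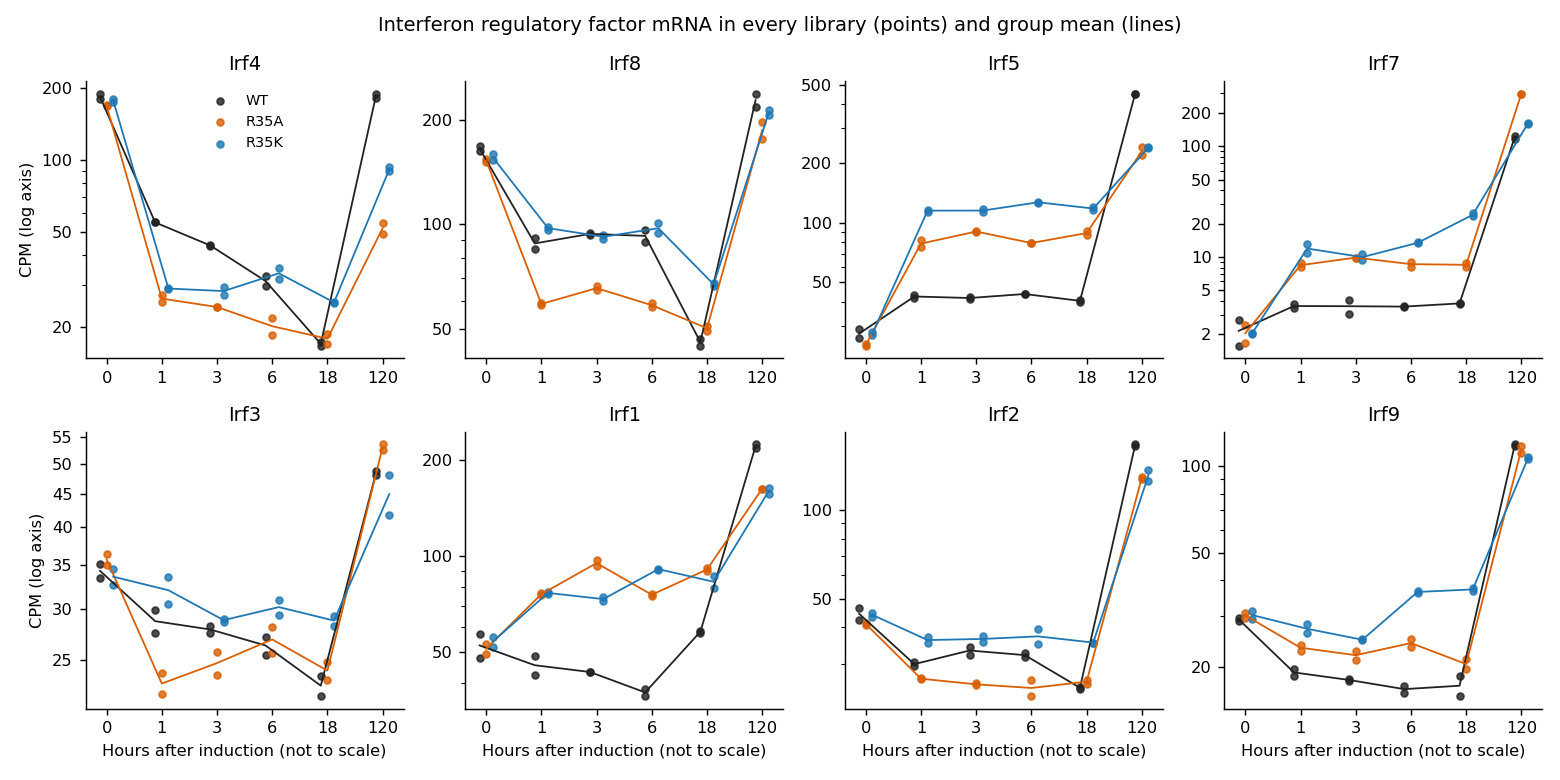
Level of each IRF mRNA in CPM (log axis, a separate range for each gene) at 6 times after induction (not to scale), with a point for each of the 36 libraries and lines through the means of 2 replicates. Irf4 starts near 180 CPM in all constructs and returns to that level at 120 h in the WT cells, while it ends at 51.8 CPM with R35A and at 91.3 CPM with R35K.

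Irf4 (chr13:30749226-30766976, + strand) encodes the IRF of plasma cells and of light-chain recombination in pre-B cells. WT libraries held 189 and 179.7 CPM at 0 h, 54.8 and 54.7 CPM at 1 hpi, 17.2 and 16.7 CPM at 18 hpi and 183 and 189.9 CPM at 120 h. The 18 hpi libraries were thus the lowest of the WT course, and the 120 h libraries overlapped with those at 0 h. The log2 change was -1.75 ± 0.050 at 1 hpi (adjusted p = 1.51e-35), -3.44 ± 0.060 at 18 hpi (adjusted p = 1.92e-46) and 0.02 ± 0.045 at 120 h (adjusted p = 0.759).

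R35A libraries held 169.6 and 168 CPM of Irf4 at 0 h, 27.1 and 25.4 CPM at 1 hpi, 16.9 and 18.7 CPM at 18 hpi and 54.6 and 48.9 CPM at 120 h. In R35K libraries the values were 180.3 and 175 CPM at 0 h, 29.0 and 28.8 CPM at 1 hpi, 25.5 and 25.1 CPM at 18 hpi and 89.5 and 93.1 CPM at 120 h. Both mutants thus stood far under their own 0 h libraries at 120 h, and their 120 h libraries overlapped neither with each other nor with WT. From 0 h to 120 h Irf4 fell by 1.71 ± 0.052 on the log2 scale with R35A and by 0.96 ± 0.048 with R35K. At 1 hpi the fall was deeper than in WT cells by 0.93 ± 0.077 with R35A (adjusted p = 2.92e-15) and by 0.87 ± 0.077 with R35K (adjusted p = 4.99e-14). At 120 h the change differed from WT by -1.72 ± 0.070 with R35A (adjusted p = 1.16e-27) and by -0.98 ± 0.066 with R35K (adjusted p = 5.65e-18), and R35K exceeded R35A by 0.75 ± 0.072 (adjusted p = 3.65e-11). At 18 hpi the order was another, with the R35K change 0.63 ± 0.090 above that of WT, a call that was lost with DESeq2 size factors (0.53). At 3 hpi the difference of the R35K change from WT was -0.59 ± 0.077 and was called, and it was not called without WT 0 h replicate 2 (-0.55), R35K 0 h replicate 1 (-0.57) or R35K 3 h replicate 2 (-0.53). Plasma cell markers summed to 666 to 672 CPM in WT at 120 h against 455 CPM with R35A and 454 to 466 CPM with R35K. Of the 4 tested, 3 rose and 1 fell from 0 h in WT, and 2 rose and 1 fell with each mutant. Of all genes 25.2%, 26.5% and 26.7% rose and 36.5%, 35.3% and 35.5% fell in WT, R35A and R35K cells. With only 4 genes these counts do not set the constructs apart. Prdm1 rose by 2.79 ± 0.11 in WT, 2.25 ± 0.12 with R35A and 2.19 ± 0.11 with R35K. Xbp1 rose by 1.38 ± 0.038, 1.52 ± 0.037 and 1.32 ± 0.038, an order unlike that of the sum. Markers of classical dendritic cells, which also use Irf4, summed to 192 to 196, 140.0 to 143 and 136 to 141 CPM. Nearly all of the latter sum was Itgax, also a macrophage gene, at 184.8 to 189 CPM in WT, 136.0 to 138.3 CPM with R35A and 130.6 to 135 CPM with R35K. The part of either in the Irf4 levels was not tested.

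Irf8 (chr8:120736358-120756694, + strand) encodes the IRF of monocytes, macrophages and dendritic cells, also made in B cells. Its WT libraries held 162 and 168 CPM at 0 h, 91.4 and 84.9 CPM at 1 hpi, 46.9 and 44.8 CPM at 18 hpi and 238 and 218 CPM at 120 h. Each of the early groups lay under 0 h, and both 120 h libraries above it. The log2 change was -0.91 ± 0.047 at 1 hpi (adjusted p = 6.39e-24), -1.85 ± 0.051 at 18 hpi (adjusted p = 4.76e-37) and 0.46 ± 0.044 at 120 h (adjusted p = 5.57e-14), the last under the 1.5-fold limit. The step from 6 to 18 hpi in WT was -1.02 ± 0.053 on the log2 scale.

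With R35A, Irf8 stood at 151 and 154 CPM at 0 h, 58.7 and 59.3 CPM at 1 hpi, 49.4 and 51.1 CPM at 18 hpi and 197 and 177 CPM at 120 h. With R35K it stood at 153 and 159 CPM at 0 h, 96.6 and 98.6 CPM at 1 hpi, 66.4 and 68.0 CPM at 18 hpi and 214 and 206 CPM at 120 h. R35A libraries were thus the lowest at 1 hpi and R35K libraries the highest at 18 hpi, and no groups of different constructs overlapped at 18 hpi. R35K exceeded R35A in the change by 0.70 ± 0.067 at 1 hpi (adjusted p = 2.86e-12) and by 0.71 ± 0.066 at 6 hpi (adjusted p = 1.51e-12). Against WT the R35A change differed by -0.46 ± 0.068 at 1 hpi (adjusted p = 9.27e-08), under the 1.5-fold limit, and the R35K change at 18 hpi by 0.64 ± 0.071 (adjusted p = 6.99e-11), which ended under that limit with DESeq2 size factors (0.53). At 120 h the 3 constructs differed in Irf8 by less than 1.5-fold, with log2 differences from WT of -0.29 ± 0.044 for R35A and -0.12 ± 0.044 for R35K. B cell markers fell at the same early times, from a sum of 4210 to 4270 CPM at 0 h to 1970 CPM at 1 hpi in WT, from 3900 to 3950 CPM to 678 to 682 CPM with R35A and from 4070 to 4120 CPM to 1180 to 1200 CPM with R35K. Their part in the Irf4 and Irf8 values was not tested.

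**Figure D2:**
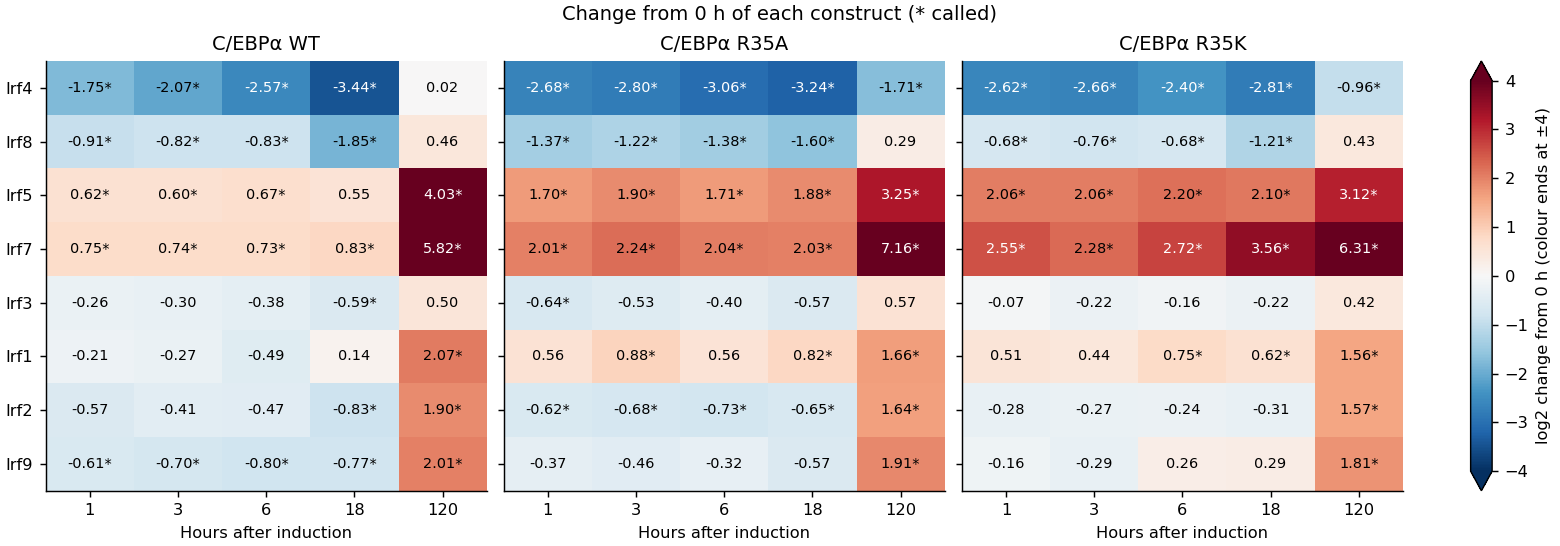
Log2 change from 0 h of the same construct for each IRF (rows) and time (columns) in the 3 constructs, coloured from blue (lower) to red (higher) with the colour ending at ±4 and an asterisk where the gene was called. Irf4 and Irf8 are lower at all early times, Irf5 and Irf7 higher, and at 120 h Irf7 carries the top value in each construct, from 5.82 in WT to 7.16 with R35A.

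Irf5 (chr6:29526625-29541871, + strand) encodes the IRF that acts downstream of Toll-like receptors in macrophages on cytokine genes. WT libraries held 26.2 and 29.0 CPM at 0 h, 43.1 and 41.9 CPM at 1 hpi, 39.8 and 41.0 CPM at 18 hpi and 450.0 and 449 CPM at 120 h. After a small early rise the WT libraries stayed level to 18 hpi, and those at 120 h stood far above the rest. The log2 change was 0.62 ± 0.061 at 1 hpi (adjusted p = 5.84e-13), which fell under the 1.5-fold limit without WT 0 h replicate 1 (0.55; 0.53 at 3 hpi), and 4.03 ± 0.050 at 120 h, a 16.3-fold rise (adjusted p = 1.45e-54).

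R35A libraries held 24.4 and 24.01 CPM of Irf5 at 0 h, 75.4 and 81.8 CPM at 1 hpi, 91.1 and 86.6 CPM at 18 hpi and 241 and 219 CPM at 120 h. R35K libraries held 27.0 and 28.2 CPM at 0 h, 117 and 114 CPM at 1 hpi, 121 and 116 CPM at 18 hpi and 241 and 239 CPM at 120 h. At 1, 3, 6 and 18 hpi every R35K library was above every R35A library and each of these above every WT library, whereas at 120 h both WT libraries were the highest. The early difference in change from WT was 1.08 ± 0.084 with R35A (adjusted p = 4.55e-16) and 1.44 ± 0.083 with R35K (adjusted p = 3.36e-21) at 1 hpi. At 120 h its sign was the opposite, -0.78 ± 0.078 with R35A (adjusted p = 2.81e-12) and -0.91 ± 0.076 with R35K (adjusted p = 1.47e-14). Between the mutants the change of Irf5 differed by at most 0.49 ± 0.079, at 6 hpi, under the 1.5-fold limit. A stretch of 411 bases, 14.15% of the exon length of Irf5, overlaps exons of Tnpo3 on the other strand, and the strand setting of the counting is not given in the sources used here.

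Irf7 (chr7:141262706-141266481, − strand) encodes the IRF of the interferon-α genes and is itself induced by interferon. It had the lowest level of the members before induction, with 1.58 and 2.71 CPM in WT, 1.68 and 2.396 CPM in R35A and 2.03 and 2.02 CPM in R35K libraries at 0 h. At 1 hpi the libraries held 3.75 and 3.44 CPM in WT, 8.09 and 8.72 CPM in R35A and 13.1 and 10.7 CPM in R35K cells. All mutant libraries were thus above all WT libraries at 1 hpi, and each group lay above its own 0 h. The log2 change at 1 hpi was 0.75 ± 0.21 in WT (adjusted p = 0.00228), 2.01 ± 0.16 with R35A (adjusted p = 3.45e-16) and 2.55 ± 0.16 with R35K (adjusted p = 5.39e-21).

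The early WT rise of Irf7 rests on few counts and on 1 library. Without WT 0 h replicate 1 it was 0.41 at 1 hpi (adjusted p = 0.217), 0.39 at 3 hpi (adjusted p = 0.224; 0.53 and 0.0996 without WT 3 h replicate 1), 0.39 at 6 hpi (adjusted p = 0.216) and 0.49 at 18 hpi (adjusted p = 0.0901). The difference in change of R35A from WT, 1.27 ± 0.28 at 1 hpi (adjusted p = 0.000267), was likewise lost without WT 0 h replicate 2 (0.83, adjusted p = 0.106), as were those at 6 hpi (0.87, adjusted p = 0.11) and 18 hpi (0.77, adjusted p = 0.186). That of R35K from WT, 1.80 ± 0.28 at 1 hpi (adjusted p = 7.44e-07), was called without any single library.

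Between 3 and 18 hpi the courses of Irf7 parted further. R35K libraries went from 10.6 and 9.27 CPM at 3 hpi to 13.5 and 13.2 CPM at 6 hpi and 23.2 and 24.8 CPM at 18 hpi, while R35A libraries held 9.84 and 9.86, 9.04 and 8.13, and 8.09 and 8.85 CPM. The R35K libraries thus stood above all others at 6 and 18 hpi and those of R35A stayed level. The R35K step from 6 to 18 hpi was 0.84 ± 0.089 (adjusted p = 3.25e-11), the only called step of any member with either mutant before 120 h. At 18 hpi the R35K change exceeded that of R35A by 1.53 ± 0.26 (adjusted p = 7.43e-06) and that of WT by 2.73 ± 0.28 (adjusted p = 9.17e-12).

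At 120 h Irf7 stood at 125 and 117 CPM in WT, 299 and 298.9 CPM in R35A and 162 and 159.6 CPM in R35K libraries, without overlap between the constructs. The R35A libraries were the highest and the WT libraries the lowest. This was a 56.6-fold rise from 0 h in WT, 143-fold with R35A and 79.2-fold with R35K. Compared directly at 120 h, R35A exceeded WT by 1.31 ± 0.053 (adjusted p = 2.94e-28) and R35K fell short of R35A, with a difference of -0.89 ± 0.051 (adjusted p = 2.1e-20), while R35K exceeded WT by 0.41 ± 0.055, under the 1.5-fold limit. As a difference in change from 0 h, that of R35K and R35A was -0.86 ± 0.24 (adjusted p = 0.0119), and it was lost without R35A 0 h replicate 1 (-0.65, adjusted p = 0.146), R35K 0 h replicate 1 (-0.85, adjusted p = 0.0724) or R35K 0 h replicate 2 (-0.86, adjusted p = 0.0728).

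Irf3 (chr7:44997648-45002848, + strand) encodes the constitutive IRF that first induces interferon-β after RNA or DNA sensing. Its widest change from 0 h, -0.64 with R35A at 1 hpi, was the smallest such value of the members. WT libraries held 35.2 and 33.4 CPM at 0 h, 23.7 and 22 CPM at 18 hpi and 48.2 and 48.7 CPM at 120 h, R35A libraries 35.03 and 36.4, 24.8 and 23.3, and 53.7 and 52.6 CPM, and R35K libraries 32.6 and 34.6, 28.2 and 29.3, and 48.2 and 41.8 CPM. Levels were lowest at 18 hpi in WT and highest at 120 h in each construct, where the rise over 0 h was 0.50 ± 0.071 in WT, 0.57 ± 0.067 with R35A and 0.42 ± 0.070 with R35K, under the 1.5-fold limit in all. The R35A rise passed it without R35A 0 h replicate 2 (0.60). A fall was called at 18 hpi in WT (-0.59 ± 0.075) and at 1 hpi with R35A (-0.64 ± 0.072), and both ended under that limit with DESeq2 size factors (-0.47 and -0.57). The former also did so without WT 0 h replicate 1 (-0.55) or WT 18 h replicate 2 (-0.53), and the latter without R35A 1 h replicate 1 (-0.58). Uncalled R35A falls became called at 3 hpi without R35A 3 h replicate 2 (-0.59) and at 18 hpi in a fit of its own table (-0.59), without R35A 0 h replicate 1 (-0.60) or without R35A 18 h replicate 1 (-0.61). No difference in change between constructs was called for Irf3, though that of R35K and R35A at 1 hpi, 0.57 ± 0.10 (adjusted p = 1.51e-05), passed the limit when R35A 0 h replicate 1 (0.59), R35A 1 h replicate 2 (0.62), R35K 0 h replicate 2 (0.61) or R35K 1 h replicate 2 (0.64) was left out.

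**Figure D3:**
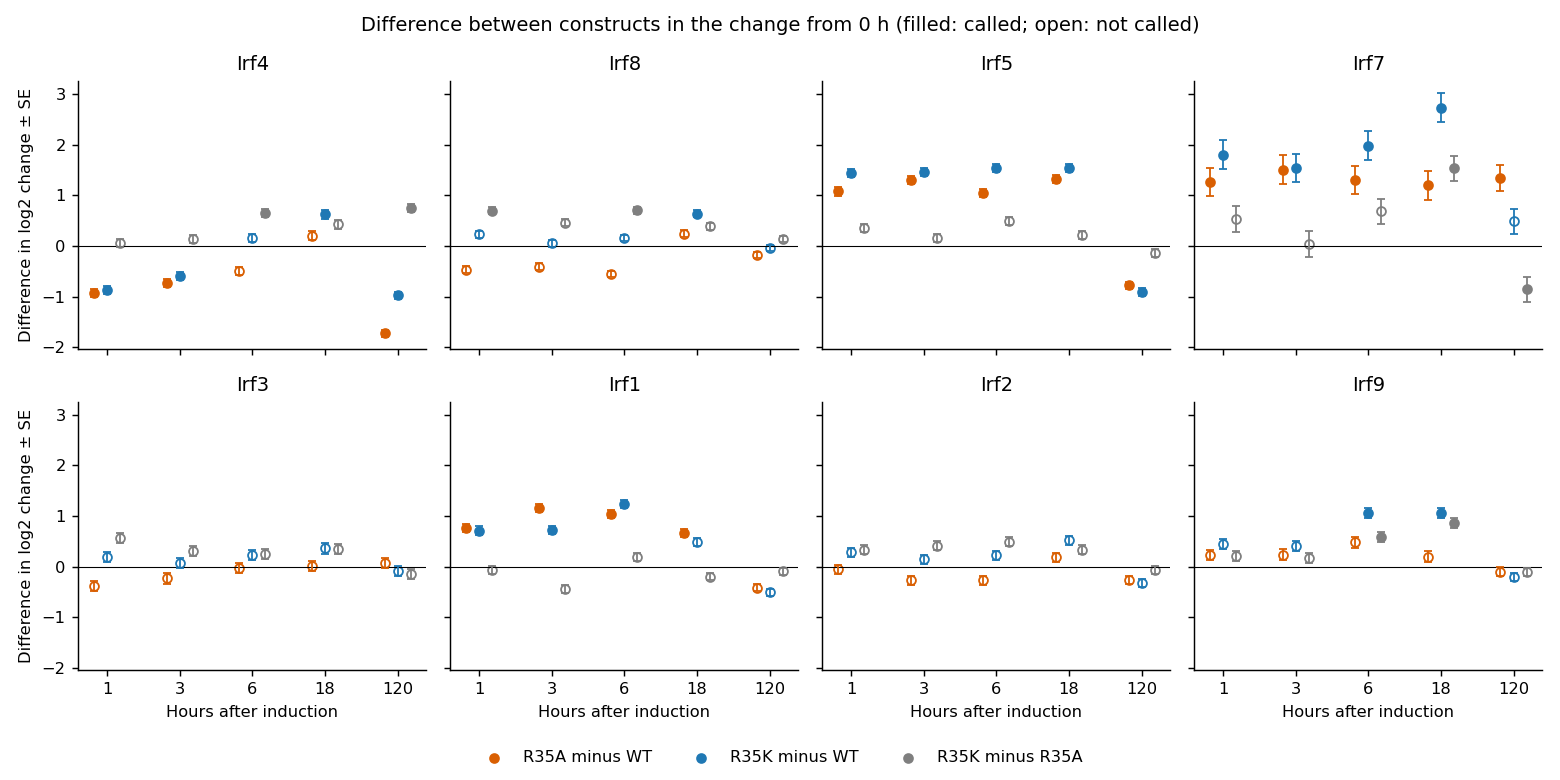
Difference between constructs in the log2 change from 0 h for each IRF at 5 times, with bars for the SE of the fit, filled points where the difference was called and open points where it was not. Irf5 of both mutants lies above WT from 1 to 18 hpi and below it at 120 h, and Irf3 and Irf2 hold no called difference.

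Irf1 (chr11:53770014-53778374, + strand) encodes an activator induced by interferon-γ. In WT libraries it held 48.1 and 57.0 CPM at 0 h, 48.5 and 42.6 CPM at 1 hpi, 38.5 and 36.5 CPM at 6 hpi, 58.5 and 57.5 CPM at 18 hpi and 223 and 217 CPM at 120 h. R35A libraries held 49.4 and 53.2, 75.6 and 76.4, 76.2 and 75.1, 91.8 and 89.7, and 162 and 162.0 CPM, and R35K libraries 52.1 and 55.9, 75.9 and 77.4, 90.6 and 91.2, 86.7 and 79.5, and 163 and 157 CPM at the same times. Mutant libraries stood above all WT libraries from 1 to 18 hpi and below both WT libraries at 120 h. The largest early differences in change from WT were 1.16 ± 0.081 with R35A at 3 hpi (adjusted p = 7.77e-18) and 1.24 ± 0.082 with R35K at 6 hpi (adjusted p = 7.55e-19). At 18 hpi the difference of R35A was 0.67 ± 0.079, which ended under the 1.5-fold limit without WT 0 h replicate 2 (0.55). WT cells showed a called rise of Irf1 from 6 to 18 hpi (0.63 ± 0.060) and a 4.196-fold level at 120 h over 0 h, and there the R35A and R35K changes differed from WT by -0.41 ± 0.075 and -0.50 ± 0.075, under the 1.5-fold limit, and the latter was called without WT 0 h replicate 2 (-0.63).

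Irf2 (chr8:46739732-46847458, + strand) encodes the antagonist of Irf1 at shared elements. WT libraries held 46.5 and 42.5 CPM at 0 h, 25.2 and 24.7 CPM at 18 hpi and 167 and 165 CPM at 120 h. R35A libraries held 40.7 and 41.5, 25.8 and 26.6, and 128 and 129 CPM, and R35K libraries 43.3 and 44.9, 35.5 and 35.5, and 125 and 137 CPM. R35K libraries were thus the highest at 18 hpi and WT libraries the highest at 120 h. The log2 change at 18 hpi was -0.83 ± 0.067 in WT, -0.65 ± 0.065 with R35A and -0.31 ± 0.062 with R35K, the last not called, and at 120 h it was 1.90 ± 0.054, 1.64 ± 0.054 and 1.57 ± 0.054. At 18 hpi the R35K change was above that of WT by 0.52 ± 0.091 (adjusted p = 4.78e-06), under the 1.5-fold limit, and it was called without WT 0 h replicate 2 (0.59).

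Irf9 (chr14:55603571-55610030, + strand) encodes the subunit that brings the type I interferon complex to the ISRE. WT libraries held 29.7 and 28.9 CPM at 0 h, 18.6 and 19.8 CPM at 1 hpi, 16.3 and 17.3 CPM at 6 hpi, 18.6 and 15.9 CPM at 18 hpi and 117 and 119 CPM at 120 h. R35A libraries held 29.6 and 30.9, 22.8 and 23.9, 25.0 and 23.5, 21.3 and 19.7, and 118 and 110.4 CPM at these times, and R35K libraries 31.3 and 29.4, 28.2 and 26.2, 36.1 and 36.9, 36.9 and 37.6, and 107 and 105 CPM. At 6 and 18 hpi the R35K libraries alone were above their own 0 h, and the R35A libraries lay between those of the other constructs. Irf9 fell at all 4 early times in WT cells, by 0.61 ± 0.075 at 1 hpi (adjusted p = 5.14e-10; -0.58 and not called with DESeq2 size factors, -0.56 without WT 1 h replicate 1) to 0.80 ± 0.077 at 6 hpi (adjusted p = 1.72e-13), and was called at none of them with either mutant. With R35A the change at 18 hpi, -0.57 ± 0.071, lay just inside the 1.5-fold limit and was called in a fit of its own table (-0.59), without R35A 0 h replicate 1 (-0.59) and without R35A 18 h replicate 1 (-0.62). The R35K change exceeded that of WT by 1.07 ± 0.10 at 6 hpi (adjusted p = 3.66e-13) and by 1.06 ± 0.10 at 18 hpi (adjusted p = 3.25e-13), and that of R35A by 0.86 ± 0.096 at 18 hpi (adjusted p = 5e-10). At 6 hpi the excess over R35A was 0.59 ± 0.093 and called, but not with DESeq2 size factors (0.52) or without R35A 0 h (0.56), R35A 6 h (0.54), R35K 0 h (0.55) or R35K 6 h (0.57) replicate 2. At 120 h all constructs had risen, by 2.01 ± 0.060, 1.91 ± 0.058 and 1.81 ± 0.058, and no pair of them was called apart.

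After the changes by 1 hpi, no member was called from 1 to 3 hpi or from 3 to 6 hpi in any construct by edgeR, nor with an unadjusted p at the same fold or by DESeq2, at times when 0.984%, 0.515% and 0.353% (3 hpi) and 1.04%, 0.168% and 1.22% (6 hpi) of all genes were called in WT, R35A and R35K cells. With so few genes called, a count of 0 of 8 does not set the members apart. From 6 to 18 hpi 3 members were called in WT (13.4% of all genes), where Irf1 rose and Irf4 and Irf8 fell, 1 with R35K (5.42%) and none with R35A (4.16%). From 18 to 120 h all 8 rose in each construct, when 30.4% of all genes rose in WT, 27.1% with R35A and 25.6% with R35K. The weakest of these was Irf3 with R35K (0.65 ± 0.072, adjusted p = 9.41e-12), which ended under the 1.5-fold limit without R35K 120 h replicate 1 (0.49) and without a filter on low counts (0.55).

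Counts of called differences in change between constructs stood above the share of all genes at most times. For R35A minus WT 4 members were called at 1 hpi (13.9% of all genes) and 4 at 3 hpi (12.7%), then 3 members at 6 hpi (10.1%) and 3 at 18 hpi (8.32%), and 3 at 120 h (14.2%). For R35K minus WT there were 4 at 1 hpi (11.9%) and 4 at 3 hpi (10.0%), then 4 members at 6 hpi (12.2%) and 5 at 18 hpi (13.3%), and 2 at 120 h (10.1%). The mutants compared with each other gave 1 member at 1 hpi (5.83%) and 0 at 3 hpi (3.02%), then 3 members at 6 hpi (5.89%) and 2 at 18 hpi (3.44%), and 2 at 120 h (1.61%), and the 0 at 3 hpi was also 0 with an unadjusted p and by DESeq2. These comparisons share their WT, R35A or R35K libraries and are not independent. Irf1, Irf5 and Irf7 were higher with both mutants at 1, 3 and 6 hpi, and Irf4 and Irf5 lower with both at 120 h.

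None of the 24 direct comparisons of members between constructs at 0 h was called by edgeR, and all were also uncalled with an unadjusted p at the 1.5-fold limit and by DESeq2. Over all genes 0 (0%) were called for R35A minus WT, 0 (0%) for R35K minus WT and 1 (0.00579%) for R35K minus R35A, against 273, 220 and 227 genes with an unadjusted p and 1, 0 and 1 by DESeq2. At 120 h, 3 members were called for R35A minus WT (18.4% of all genes), namely Irf7 higher and Irf4 and Irf5 lower, 2 for R35K minus WT (13.8%), Irf4 and Irf5 lower, and 2 for R35K minus R35A (2.85%), Irf4 higher and Irf7 lower. The direct difference of Irf4 was -1.85 ± 0.054 for R35A and -1.03 ± 0.050 for R35K from WT, and that of Irf5 -0.97 ± 0.039 and -0.91 ± 0.039.

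Levels of different genes can be set side by side only per length. Per kilobase (kb) of the union of exons in GENCODE vM21, WT cells at 0 h held 37.6 ± 1.31 CPM per kb of Irf4, 23.4 ± 0.581 of Irf8, 13.2 ± 1.60 of Irf1, 9.96 ± 0.366 of Irf3, 9.50 ± 0.682 of Irf5, 6.01 ± 0.386 of Irf2, 5.44 ± 0.101 of Irf9 and 0.567 ± 0.212 of Irf7 (SD, n = 2). In this order Irf3 and Irf5 overlapped in their libraries. Irf4 and Irf8 were the top pair and Irf7 the lowest at 0 h in all constructs, also per kb of the longest protein-coding transcript, which put Irf8 above Irf4. At 120 h the leading gene per kb of exon was Irf5 in WT (155 CPM per kb) and R35K (82.5), and with R35A Irf5 (79.2) and Irf7 (79.2) overlapped. Irf4 was then the third in WT (38.0) and the last with R35A (10.6). With the longest transcript Irf4 was the seventh in WT, and Irf7 (134) stood above Irf5 (103) with R35A. The last gene with R35K was Irf3 (13.1) per kb of exon but Irf4 (19.2) by the longest transcript. Ranks at 120 h, the first and last among them, thus depend on the length used.

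Among themselves the members fell into courses of unlike shape over the 18 group means of log2 CPM. The Pearson correlation was 0.93 for Irf5 with Irf7, 0.95 for Irf2 with Irf9 and 0.87 for Irf4 with Irf8, and it was -0.10 for Irf4 with Irf5 and 0.02 for Irf4 with Irf7. Other pairs were as close, with 0.95 for Irf2 with Irf3 and 0.92 for Irf3 with Irf8, Irf1 with Irf5 and Irf1 with Irf7. By Spearman's rho Irf2 was nearer to Irf8 (0.95) than to Irf9 (0.80). The pairs are thus not separate groups. These are descriptions over 18 points that share libraries and a time course. Of 17276 other genes the course most like that of Irf7 was that of Parp12 (r = 0.995), followed by Oasl2 (0.993), both interferon-stimulated genes, and Akr1a1 (0.993). For Irf8 these were Mef2c (0.990), Ptpn7 (0.990) and Pik3cd (0.988), for Irf4 Acap1 (0.983), Eif4b (0.980) and Baz1a (0.9765), and for Irf5 Arrb1 (0.993), Bcl10 (0.9895) and Efhd2 (0.989). The nearest to Irf1 were Csf3r (0.975), Tnfaip3 (0.971) and Tmem208 (0.971), to Irf2 Nbeal2 (0.9915), Itpk1 (0.991) and Enox2 (0.989), to Irf3 Psme1 (0.987), Gtf2e2 (0.985) and Gfm2 (0.981), and to Irf9 Rab8a (0.991), Casp8 (0.987) and Tmem173 (0.986), the adaptor STING. These orders depend on the measure, since by Spearman's rho Oasl2 was at rank 312 for Irf7, Bcl10 at 390 for Irf5, Enox2 at 257 for Irf2 and Mef2c at 206 for Irf8, and over the 12 groups of WT and R35A alone Akr1a1 was the first for Irf7.

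Of the 22 genes listed as interferon-stimulated, 11 rose and 0 fell at 1 hpi in WT, 16 and 0 with R35A and 17 and 0 with R35K. Of all genes 10.0%, 18.9% and 16.4% rose at that time, and 1680, 3140 and 2668 of the 17277 genes fell. In WT 3 of the 22 fell at 3 hpi, 1 at 6 hpi and 5 at 18 hpi, when 9 rose. Of all genes 11.3%, 14.2% and 23.0% fell in WT at these times, and 23.7% rose at 18 hpi. The counts of falls were thus near or under the shares of all genes. All 22 interferon-stimulated genes rose at 120 h in each construct, with medians of 5.18, 5.85 and 5.21 on the log2 scale. Over all 17277 genes the median change at 120 h was -0.23 in WT, -0.18 with R35A and -0.20 with R35K, and 25.2%, 26.5% and 26.7% of them rose and 36.5%, 35.3% and 35.5% fell. In R35K cells the median change of the 22 interferon-stimulated genes went from 2.13 at 3 hpi to 2.82 at 18 hpi, while it went from 1.59 to 1.05 with R35A and from 0.49 to 0.35 in WT. The largest WT rises at 120 h were those of Oas2 (9.77 ± 0.13 in WT, 10.04 ± 0.10 with R35A and 10.03 ± 0.11 with R35K), Rsad2 (9.41 ± 0.14, 9.66 ± 0.14 and 9.07 ± 0.15) and Mx1 (9.31 ± 0.14, 9.80 ± 0.14 and 9.97 ± 0.16), all antiviral effectors.

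**Figure D4:**
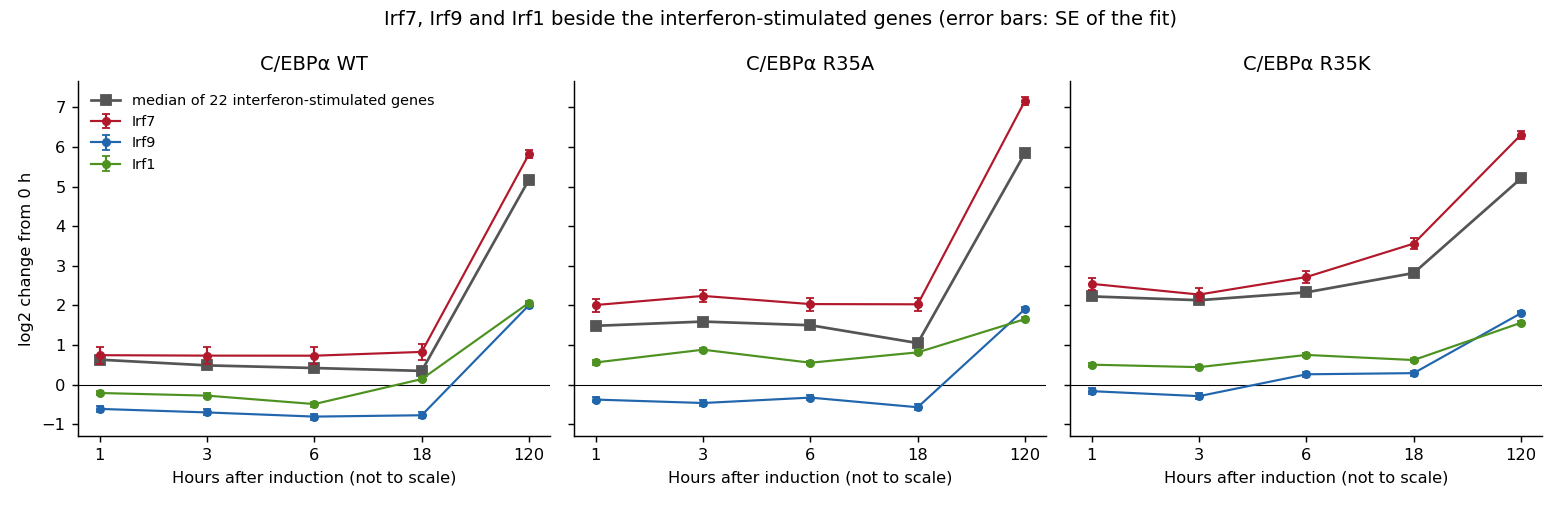
Log2 change from 0 h of Irf7, Irf9 and Irf1 (circles with the SE of the fit) beside the median of 22 interferon-stimulated genes (squares) at 5 times (not to scale) in the 3 constructs. Irf7 lies above the median at every time, and in the R35K panel Irf7 goes from 2.28 at 3 hpi to 3.56 at 18 hpi and the median from 2.13 to 2.82.

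Of 15 interferon receptor and JAK-STAT genes 13 rose in WT, 11 with R35A and 12 with R35K at 120 h and none fell, with medians of 1.83, 1.58 and 1.40. The shares of all genes that rose were 25.2%, 26.5% and 26.7%. The feedback inhibitor Socs3 rose by 4.71 ± 0.056 in WT, 4.62 ± 0.055 with R35A and 4.71 ± 0.054 with R35K, the deISGylase Usp18 by 4.49 ± 0.15, 5.72 ± 0.12 and 4.77 ± 0.14, and the interferon-γ receptor chain Ifngr1 by 3.76 ± 0.041, 3.27 ± 0.041 and 3.59 ± 0.041. At 1 hpi 2 genes of this list rose and 1 fell in WT, 6 rose and 2 fell with R35A and 7 rose and 0 fell with R35K, and the WT count was near the share of all genes.

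Stat2, a partner of Irf9, is named here after its values had been seen. Stat2 rose by 2.51 ± 0.059 in WT, 3.22 ± 0.055 with R35A and 2.79 ± 0.057 with R35K at 120 h, and at 18 hpi its change was -0.64 ± 0.078, -0.42 ± 0.073 and 0.54 ± 0.067.

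Of the 18 genes tested among the sensors and adaptors upstream of Irf3, Irf5 and Irf7, 16 rose in WT, 15 with R35A and 16 with R35K at 120 h, and 1 fell in each, with medians of 1.98, 1.61 and 1.62. The shares of all genes were 25.2%, 26.5% and 26.7% for a rise and 36.5%, 35.3% and 35.5% for a fall. Tlr7, the endosomal receptor of single-stranded RNA, rose by 7.18 ± 0.096 in WT, 7.50 ± 0.096 with R35A and 7.90 ± 0.096 with R35K. The RNA helicase sensor Ifih1 rose by 4.15 ± 0.096, 4.08 ± 0.086 and 3.87 ± 0.089, and Mb21d1, the DNA sensor cGAS, by 3.87 ± 0.16, 4.04 ± 0.14 and 3.73 ± 0.15. The ubiquitin ligase Traf6 fell, with changes of -0.81 ± 0.039, -1.03 ± 0.039 and -0.94 ± 0.038.

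The DNA-binding partners Spi1 and Spib of Irf4 and Irf8 moved in opposite directions. Spi1, which encodes PU.1, stood at 30.3 to 33.2 CPM over the 6 libraries at 0 h and rose by 3.61 ± 0.056 in WT, 3.62 ± 0.055 with R35A and 3.47 ± 0.055 with R35K by 120 h. Spib, which encodes Spi-B, went from 99.7 to 115.6 CPM over the libraries at 0 h to 0.287 to 1.90 CPM at 120 h, a change of -7.44 ± 0.14, -6.20 ± 0.12 and -6.94 ± 0.13. Both moved by 1 hpi, Spi1 by 1.16, 1.59 and 2.31 and Spib by -1.27, -2.46 and -1.73. Of the 12 partners and corepressors listed, 4 rose and 6 fell in WT, 4 and 4 with R35A and 3 and 5 with R35K at 120 h, with medians of -0.34, 0.01 and -0.12. These counts are near the shares of all genes, of which 25.2%, 26.5% and 26.7% rose and 36.5%, 35.3% and 35.5% fell. The partners listed include the AP-1 factor Batf (2.92 ± 0.15, 3.16 ± 0.14 and 2.80 ± 0.14), the E protein Tcf3 (-2.70 ± 0.052, -2.54 ± 0.050 and -2.90 ± 0.052) and Irf2bpl, a relative of an Irf2 corepressor (-0.97 ± 0.060, -1.37 ± 0.059 and -1.30 ± 0.060).

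Among 10 target genes of Irf4 and Irf8, 5 rose and 5 fell in WT and 4 rose and 5 fell with each mutant at 120 h, with medians of 0.01, -0.52 and -0.51. The shares of all genes were 25.2%, 26.5% and 26.7% for a rise and 36.5%, 35.3% and 35.5% for a fall. Cybb, the oxidase subunit of phagocytes, rose by 7.50 ± 0.049 in WT, 7.37 ± 0.049 with R35A and 7.36 ± 0.048 with R35K, the plasma cell regulator Prdm1 by 2.79 ± 0.11, 2.25 ± 0.12 and 2.19 ± 0.11, and Klf4 by 0.93 ± 0.036, 0.68 ± 0.035 and 0.82 ± 0.036. The surrogate light chain genes Igll1 and Vpreb1 and the lymphoid factor Ikzf3 fell, Igll1 with changes of -9.95 ± 0.094, -9.63 ± 0.091 and -10.13 ± 0.095, Vpreb1 of -9.0 ± 0.12, -8.37 ± 0.11 and -10.14 ± 0.13 and Ikzf3 of -9.58 ± 0.14, -9.28 ± 0.13 and -8.84 ± 0.12. Igll1 and Vpreb1 are also in the list of B cell markers.

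Of 12 tested targets of Irf1 in antigen processing and inflammation, 8 rose in WT, 11 with R35A and 10 with R35K at 120 h and 1 fell in each, with medians of 1.07, 1.27 and 0.95. The rises were led by the inflammasome protease Casp1 (2.43 ± 0.074, 2.73 ± 0.069 and 2.54 ± 0.070), the GTPase Gbp2 (2.02 ± 0.087, 2.26 ± 0.080 and 1.95 ± 0.084) and the peptide-loading protein Tapbp (1.94 ± 0.043, 2.26 ± 0.042 and 1.88 ± 0.042). Ciita, the master regulator of MHC class II, fell, with changes of -3.30 ± 0.18, -3.33 ± 0.18 and -3.65 ± 0.18. The shares of all genes at 120 h were 25.2%, 26.5% and 26.7% for a rise and 36.5%, 35.3% and 35.5% for a fall. At 1 hpi 0 of the 12 rose and 4 fell in WT, 0 rose and 6 fell with R35A and 3 rose and 4 fell with R35K, when 10.0%, 18.9% and 16.4% of all genes rose and 1680, 3140 and 2668 of 17277 fell.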

How the data were processed

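RNA was sequenced from 36 libraries, 2 replicates in each of 18 groups of construct and time. Per the labels and the methods of the study, reads (TruSeq Stranded mRNA, single-end) were checked with FastQC and aligned to mm10 with STAR 2.5.0a, whose gene counts the authors deposited in 2 tables of raw counts. The annotation release and strand setting are not given in the sources used here. The authors also deposited log2 values of counts normalized with DESeq2 1.14.1. Raw counts were analysed here. The log2 values served as an alternative. They are log2 of counts over size factors, with a constant added before the log, at a tolerance of 0.001 for 100% of values.

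All 36 libraries entered 1 edgeR 4.0.16 quasi-likelihood fit (R 4.3.3, limma 3.58.1) over the 18 groups after filterByExpr and TMM scaling, with Benjamini-Hochberg adjustment over 17277 genes and a limit of 1.5-fold and an adjusted p of 0.05. The common biological coefficient of variation was 3.27%. Levels are CPM, counts scaled to 1000000 per library on TMM-scaled library sizes. Library totals of 13044456 to 23131776 counts put at least 249 counts behind every member value but those of Irf7, which had as few as 23 and the largest errors. The 48 contrasts were changes from 0 h, steps between times, differences in change between constructs and direct comparisons at 0 h and 120 h. Gene positions and lengths come from GENCODE vM21 (GRCm38). The fits were tested on simulated data.

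Named genes are all 8 members and, for each, the 3 genes of highest Pearson correlation of group means. From each pathway list they are up to 3 rising and 3 falling genes of largest WT change at 120 h. These were called the same way in all constructs and had a mean log2 CPM of at least 1. Marker lists are given as sums over the whole list. Beside the sums stand values of Itgax, Prdm1 and Xbp1, counts of called plasma cell and B cell markers and the median changes of the latter. Members, lists and tests were chosen with earlier results of these data known. At the median over pairs of groups, same-numbered replicates did not deviate together. The correlation of their deviations from the group means, over 8259 genes and 153 pairs of groups, had a median of -0.008. It passed 0.1 in 27 pairs, so that shared deviations in some groups are not excluded. Alternatives were DESeq2 1.42.0, other scaling, filters, thresholds, a replicate block, each count table alone and leaving out each library. Some items are not reported here.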

Additional observations from a re-analysis of the deposited data

Results flagged for a closer look

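The change from 0 h differed between constructs at some time, by a test of the difference itself, for 6 of the 8 members. Single comparisons of this kind called 1.61% to 14.2% of all genes. The share of all genes called in any of them was not taken, so the count of 6 does not set the members apart. Each value is the log2 difference at the time where it was largest among the called ones, with its SE and the adjusted p of edgeR's quasi-likelihood test, and no explanation was tested.

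Irf4 differed by -1.72 ± 0.070 at 120 h between R35A and WT (adjusted p = 1.16e-27), by -0.98 ± 0.066 at 120 h between R35K and WT (adjusted p = 5.65e-18) and by 0.75 ± 0.072 at 120 h between R35K and R35A (adjusted p = 3.65e-11). The difference of Irf5 from WT was 1.32 ± 0.084 with R35A (adjusted p = 3.24e-19) and 1.55 ± 0.083 with R35K (adjusted p = 1.26e-22) at 18 h, and of the opposite sign at 120 h with both.

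Irf7 differed from WT by 1.51 ± 0.28 with R35A at 3 h (adjusted p = 2.14e-05) and by 2.73 ± 0.28 with R35K at 18 h (adjusted p = 9.17e-12), and R35K exceeded R35A by 1.53 ± 0.26 at 18 h (adjusted p = 7.43e-06). These Irf7 values rest on 23 to 45 counts in each library at 0 h. Irf1 exceeded WT by 1.16 ± 0.081 with R35A at 3 h (adjusted p = 7.77e-18) and by 1.24 ± 0.082 with R35K at 6 h (adjusted p = 7.55e-19).

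Irf8 with R35K exceeded R35A by 0.71 ± 0.066 at 6 h (adjusted p = 1.51e-12) and WT by 0.64 ± 0.071 at 18 h (adjusted p = 6.99e-11), the latter 0.53 and not called with DESeq2 size factors. Irf9 with R35K exceeded WT by 1.07 ± 0.10 at 6 h (adjusted p = 3.66e-13) and R35A by 0.86 ± 0.096 at 18 h (adjusted p = 5e-10).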

How the results depend on the processing

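No called member value changed its sign under any alternative run. With a 2-fold in place of a 1.5-fold limit the called tests went from 26 to 10 of 40 for the WT changes, from 19 to 11 for R35K minus WT, from 8 to 1 for R35K minus R35A and from 7 to 3 of 24 for the constructs at 120 h, since many members moved by 1.5-fold to 2-fold. Leaving out each library in turn gave 20 to 28 called tests for WT, 28 to 32 for R35A and 23 to 24 for R35K, 13 to 18 for R35A minus WT, 18 to 21 for R35K minus WT, 6 to 9 for R35K minus R35A, 0 at 0 h, 7 at 120 h, and 11, 8 and 8 to 9 for the steps in WT, R35A and R35K cells. With a replicate block the counts were 26, 29 and 24 for the changes and 17, 19 and 8 for the differences, and no call changed in 384 tests; same-numbered replicates share only a number. DESeq2 gave 25, 29 and 24 called changes and 17, 17 and 7 differences. Scaling by DESeq2 size factors shifted the median of all genes by 0.123 for WT at 18 h and by -0.106 for R35K minus WT at 18 h, and the share of calls that were higher went from 66.8% to 52.8% there, from 67.6% to 56.7% for R35A minus WT at 18 h, from 71.2% to 58.5% and from 79.6% to 66.3% for R35K minus R35A at 1 and 6 h, and from 22.6% to 34.9% for the WT step to 18 h. Count tables fitted alone gave 26, 31 and 23 called changes and no value across tables. The deposited log2 values, which give a fold but no test, put 25, 29 and 24 changes, 17, 17 and 7 differences and 7 values at 120 h past 1.5-fold, and 41 of 384 values moved by more than the spread between replicates. Irf7 had 23 to 45 counts a library at 0 h, where leaving out 1 library changed its WT calls.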
